A study of Canis lupus familiaris with 8 samples.

Results

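Interferon regulatory factors (IRFs) are transcription factors that share a DNA-binding domain marked by conserved tryptophans and bind related motifs in the promoters of interferon genes and of genes that interferon induces. IRF3, IRF5 and IRF7 carry signals from Toll-like and nucleic acid receptors, IRF9 joins STAT2 in the complex that answers type I interferon, IRF1 and IRF2 act on the same sites as an activator and a competing repressor, and IRF4 and IRF8 direct the development of lymphocytes and myeloid cells with the partner PU.1. The 8 IRF genes described here, IRF1, IRF2, IRF3, IRF4, IRF5, IRF7, IRF8 and IRF9, were chosen by gene symbol among the 35048 rows of the tables. All 8 were found, each in a single row, and all 8 passed the filter on low counts.

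RNA was sequenced from peripheral blood mononuclear cells (PBMCs), which are the lymphocytes and monocytes purified from blood, of 5 obese dogs and 3 normal dogs, to compare gene expression between the groups. The obese dogs were a Dachshund (dog 1), a Chihuahua (dog 2), Labrador retrievers (dogs 3 and 4) and a Welsh Corgi (dog 5), and the normal dogs were all Beagles. No obese dog was a Beagle, so that body condition and breed cannot be told apart in any comparison. The labels give no age, sex or treatment, and number each library as a separate dog.

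Libraries held 10264202 to 14910982 counts. They were 3′ tag libraries, in which a transcript is counted once near its poly(A) end, so that CPM (counts scaled to a common library size) can be set side by side between genes without division by length, within the limits of how well each gene's end is annotated. Markers of T cells (10 of 10 genes) and monocytes (10 of 10) were counted in every dog, and so were 8 of 9 B cell markers. Obese dog 3 stood apart in its erythroid markers, with a summed level of 1171 CPM against 16.8 to 55.4 CPM in the other obese dogs and 15.9 to 18.1 CPM in normal dogs. Over all 20632 genes tested with edgeR, 48 (0.233%) passed an adjusted p of 0.05.

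In CPM, IRF4 was lower and IRF8 higher in every obese dog than in any normal dog, and neither difference passed the threshold over all genes. For IRF8 the gap between the nearest dogs lay within counting error. None of the 8 IRF genes had an adjusted p under 0.05 by edgeR's quasi-likelihood test with Benjamini-Hochberg adjustment. Unadjusted, 4 of the 8 had a p under 0.05 (IRF4, IRF8, IRF7 and IRF9), where 15.7% of all genes did. The groups did not overlap in CPM for 2 of the 8, IRF4 and IRF8, where 10.9% of all genes had groups without overlap. By DESeq2 3 of the 8 passed an adjusted p of 0.05 (IRF4, IRF7 and IRF8, with 5.25% of all genes called), and by limma voom with quality weights 3 passed (IRF4, IRF8 and IRF9, with 19.1% of all genes called). The family was evenly divided, with 4 positive and 4 negative log2 fold changes and a median of −0.19, beside a median of 0.09 over all genes. The sum of the 8 genes was 653 ± 119 CPM in obese and 725 ± 84.4 CPM in normal dogs (SD, n = 5 and 3), a difference smaller than the SD of either group.

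**Figure D1:**
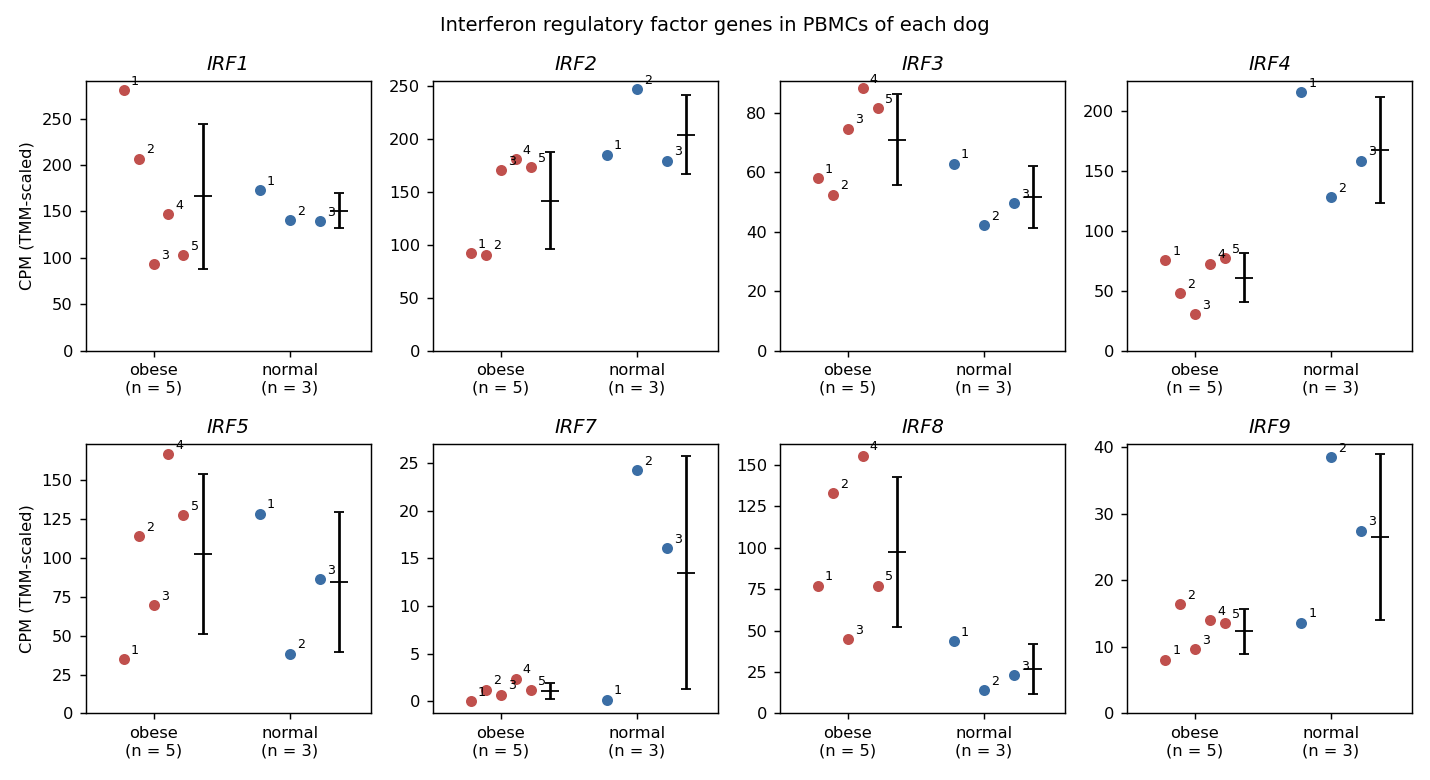
CPM of each of the 8 IRF genes (y axis, TMM-scaled, a separate scale per panel) in the 5 obese dogs (red) and the 3 normal dogs (blue), with the dog number beside each point and the mean ± SD as a black bar. The IRF4 points of all obese dogs lie below, and the IRF8 points above, those of all normal dogs, while the points of IRF1 and IRF5 are interspersed.

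IRF4, which drives plasma cell differentiation and T helper cell function, had 75.7, 48.1, 30.6, 72.5 and 77.3 CPM in obese dogs 1 to 5, against 215, 128 and 158 CPM in normal dogs 1 to 3. The highest obese dog stood well below the lowest normal dog. The means were 60.8 ± 20.6 and 167 ± 44.4 CPM (SD, n = 5 and 3), which put the obese mean 2.75-fold lower. The log2 fold change was −1.46 (standard error, SE, 0.324, adjusted p = 0.103, edgeR), and 1.00% of all genes had a smaller p. Without obese dog 3, whose IRF4 value was the lowest, the adjusted p was 0.0146 by the same test at a log2 fold change of −1.32, in a fit that called 8.28% of all genes. The other 7 fits that left out 1 dog gave values of −1.65 to −1.22, and IRF4 did not pass in them.

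IRF8, which acts in the development of monocytes, dendritic cells and B cells, ran the other way. It had 77.1, 133, 44.9, 156 and 77.1 CPM in obese dogs 1 to 5, against 43.6, 14.1 and 23.1 CPM in normal dogs 1 to 3. The gap was narrow, with obese dog 3 at 44.9 CPM and normal dog 1 at 43.6 CPM. The means were 97.5 ± 45.3 and 26.9 ± 15.1 CPM (SD, n = 5 and 3), a ratio of 3.62. The log2 fold change was 1.86 (SE 0.487, adjusted p = 0.136, edgeR), and without obese dog 3 it was 2.00 (adjusted p = 0.0207, edgeR), in the same fit that called 8.28% of all genes. The other 7 fits that left out 1 dog gave log2 fold changes of 1.52 to 2.40 for IRF8, with edgeR adjusted p-values of 0.163 to 0.533. IRF8 overlaps an uncharacterised lncRNA in the reference annotation, which had 19 counts in all dogs against 8308 counts of IRF8.

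Within a library the ratio of the counts of 2 genes does not depend on how libraries are scaled. The ratio of IRF4 to IRF8 was 0.981, 0.361, 0.682, 0.466 and 1.00 in obese dogs 1 to 5, against 4.94, 9.11 and 6.85 in normal dogs 1 to 3. IRF4 counts were thus about equal to or below those of IRF8 in obese dogs and several times above them in normal dogs. On the log2 scale, with 0.5 counts added, the ratio was −0.63 ± 0.65 in obese and 2.75 ± 0.44 in normal dogs (SD, n = 5 and 3), a difference of −3.38. Over all 56 ways to split the dogs into 5 and 3, an exact permutation test (two-sided) gave p = 0.0179, the smallest it can give, and 0.0536 adjusted over the 3 ratios compared (IRF4 to IRF8, IRF1 to IRF2, IRF7 to IRF3). With IRF4 lower and IRF8 higher in every obese dog, the ratios had to lie apart, so that this p adds nothing to those separations. The difference lay between −3.61 and −3.17 when any 1 dog was left out.

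**Figure D2:**
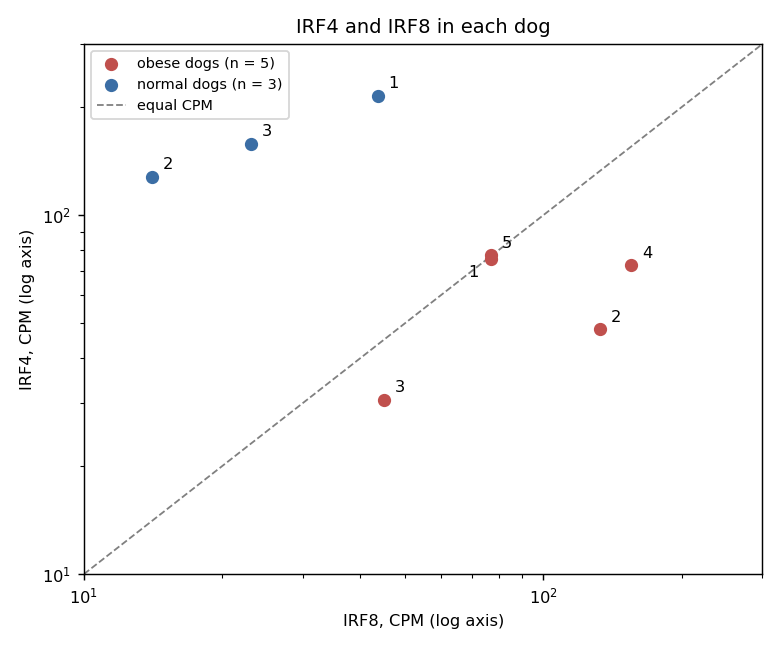
IRF4 (y axis) against IRF8 (x axis) in each dog, both in CPM on log axes, with obese dogs in red, normal dogs in blue, dog numbers beside the points and a dashed line at equal CPM. The 5 obese dogs lie on or below the line and the 3 normal dogs lie above it, between 4.94 and 9.11 times the IRF8 level.

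PBMCs are a mixture, and in such bulk RNA fewer cells of a type cannot be told apart from less RNA of a gene per cell. The summed level of 9 plasma cell markers was 105 to 228 CPM in obese and 241 to 1102 CPM in normal dogs, without overlap. Its order in normal dogs (dog 1 highest, dog 2 lowest) was that of IRF4, but its order in obese dogs was not. There dog 2 had the highest sum (228 CPM) and dog 1 the lowest (105 CPM), with IRF4 at 48.1 and 75.7 CPM. JCHAIN carried much of it, and the sum of the other 8 markers overlapped, at 99.9 to 211 CPM in obese and 186 to 499.5 CPM in normal dogs. Gene by gene, 7 of the 8 markers tested were lower at an unadjusted edgeR p under 0.05 (6.73% of all genes). The groups did not overlap in 6 of them (10.9% of all genes), and XBP1 alone had a positive log2 fold change. TNFRSF17 passed after adjustment, with 0.647 ± 0.395 CPM in obese and 14.1 ± 4.48 CPM in normal dogs (log2 fold change −4.39, adjusted p = 0.0228, edgeR). The proliferation markers summed to 45.2 to 203 CPM in obese and 201 to 303 CPM in normal dogs. Without MKI67, the most abundant of them, the other 5 summed to 32.0 to 62.6 CPM in obese and 111 to 156 CPM in normal dogs, without overlap. The part of plasma cells or dividing cells in the IRF4 difference was not tested. Of the 10 monocyte markers, 6 had positive and 4 negative log2 fold changes, with a median of 0.13. Their summed level was 1102 to 1558 CPM in obese and 1735 to 2891 CPM in normal dogs, a difference carried by VCAN (201 to 851 CPM in obese and 920.5 to 2191 CPM in normal dogs). The other 9 summed to 708 to 1232 CPM in obese and 700 to 1314 CPM in normal dogs. Of these 9, only MSR1 did not overlap, at 7.03 ± 3.20 CPM in obese and 28.25 ± 5.65 CPM in normal dogs (adjusted p = 0.0716, edgeR). The summed B cell markers overlapped between the groups (60.7 to 290 and 59.4 to 124 CPM). So did the sums of the 6 conventional dendritic cell markers (32.6 to 110 and 35.7 to 47.7 CPM) and the 8 plasmacytoid dendritic cell markers (241 to 493 and 315 to 381 CPM). Log2 fold changes were positive in 7 of 9 B cell, 5 of 6 conventional and 4 of 7 plasmacytoid dendritic cell markers tested. The groups did not overlap in 0 of the 9, 2 of the 6 (ZBTB46 and FCER1A) and 1 of the 7 (PLD4). These genes were higher in obese dogs, and 10.9% of all genes had groups without overlap. No marker of these lists passed after adjustment. The T cell markers summed to 465 to 1657 CPM in obese and 349 to 482 CPM in normal dogs. Without LEF1, the most abundant, the other 9 summed to 403 to 1052 and 287 to 353 CPM, without overlap. All 10 had positive log2 fold changes, 9 with an unadjusted edgeR p under 0.05 (9.01% of all genes were higher at that p), and none passed after adjustment. The platelet markers summed to 66.3 to 1230 CPM in obese and 7.19 to 31.1 CPM in normal dogs, also without overlap. None of these lists had a marker at 0 in all dogs, and their part in the IRF8 difference was not tested.

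Of 11 genes listed as acting with IRF4 and IRF8 in B and plasma cells, 10 were tested and none passed in either direction. The median log2 fold change of these 10 was 0.30, with 5 at an unadjusted p under 0.05, of which 2 were higher and 3 lower (9.01% and 6.73% of all genes). POU2AF1, a coactivator of octamer-binding factors in B cells, had 7.20 ± 2.69 CPM in obese and 42.3 ± 25.0 CPM in normal dogs (log2 fold change −2.55, adjusted p = 0.0510, edgeR). PRDM1, the repressor BLIMP1 that IRF4 induces in plasma cells, had 26.3 ± 16.8 and 83.2 ± 23.1 CPM in obese and normal dogs, without overlap (adjusted p = 0.130, edgeR). IKZF1, or Ikaros, had 990 ± 459 CPM in obese and 369 ± 56.7 CPM in normal dogs (adjusted p = 0.165, edgeR), with the obese dog 3 value inside the normal range. SPI1, which encodes the shared partner PU.1, had 418 ± 137 CPM in obese and 413 ± 123 CPM in normal dogs.

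IRF7 and IRF9, which are among the members that interferon induces, were low in all obese dogs and split the normal dogs. IRF7, which amplifies type I interferon production, had 0, 18, 6, 42 and 20 counts in obese dogs 1 to 5, against 2, 219 and 252 counts in normal dogs 1 to 3. On the CPM scale the obese dogs ran from 0 to 2.34 and normal dogs 1 to 3 had 0.141, 24.2 and 16.1. The IRF7 level of normal dog 1 was thus among those of obese dogs, with a 95% Poisson interval of 0.0170 to 0.508 CPM, and the same interval for the 0 counts of obese dog 1 was 0 to 0.418 CPM. The limit that a count of 0 allows, set at 3 counts, was 0.340 CPM in obese dog 1. Both kinds of limit cover counting error only. The log2 fold change was −3.59 (SE 1.18, adjusted p = 0.215, edgeR), and it was −2.62 (adjusted p = 0.350) by limma voom with quality weights and −3.63 (adjusted p = 0.0267) by DESeq2.

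IRF9, the DNA-binding part of the interferon-activated complex with STAT2, had 8.05, 16.5, 9.64, 14.1 and 13.5 CPM in obese dogs 1 to 5, against 13.6, 38.5 and 27.5 CPM in normal dogs 1 to 3. Here too normal dog 1 lay within the obese range and the other normal dogs above it. The means were 12.3 ± 3.43 CPM in obese and 26.5 ± 12.5 CPM in normal dogs (SD, n = 5 and 3). The log2 fold change was −1.10 (SE 0.370, adjusted p = 0.216, edgeR), with −0.76 without normal dog 2 and −1.40 without normal dog 1, neither of which passed.

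The interferon-stimulated genes showed the same split of the normal dogs. Of 29 listed, 26 were found and 25 tested, and their summed level was 454 to 578 CPM in obese dogs, against 460, 7302 and 2531 CPM in normal dogs 1 to 3. The median log2 fold change of the 25 genes was −2.96, 19 had an unadjusted p under 0.05, all of them lower (6.73% of all genes), and none passed over all genes by edgeR. The members of this list with the smallest p were EIF2AK2, EPSTI1 and ISG15, with adjusted p-values of 0.0666 to 0.0747. The groups did not overlap in 3 of the 25, a share near the 10.9% of all genes. In the same libraries 11 neutrophil markers summed to 1002, 248, 7235, 352 and 261 CPM in obese dogs 1 to 5, against 1737, 7054 and 4492 CPM in normal dogs 1 to 3. In the normal dogs the neutrophil and interferon-stimulated sums were both lowest in dog 1 and highest in dog 2. Obese dog 3, with the highest neutrophil level, had 517 CPM of the interferon-stimulated genes, within the range of the other obese dogs. The part of neutrophils in the interferon pattern was not tested. The genes whose pattern was most like that of IRF7 over the 8 dogs were AGRN (Pearson r = 0.942 on log2 CPM), IFI44L, an interferon-stimulated gene (r = 0.934), and DMXL1 (r = 0.927). AGRN, which lies next to ISG15 in the reference annotation, was also the gene most like IRF9 (r = 0.980), before APMAP and POU2F1 (both r = 0.977). These are the best of 10109 genes with a mean of at least 5 CPM over the 8 dogs, and r is given as a description. AGRN had 0.429 ± 0.367 CPM in obese and 28.3 ± 37.6 CPM in normal dogs, and met that minimum through the normal dogs alone.

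**Figure D3:**
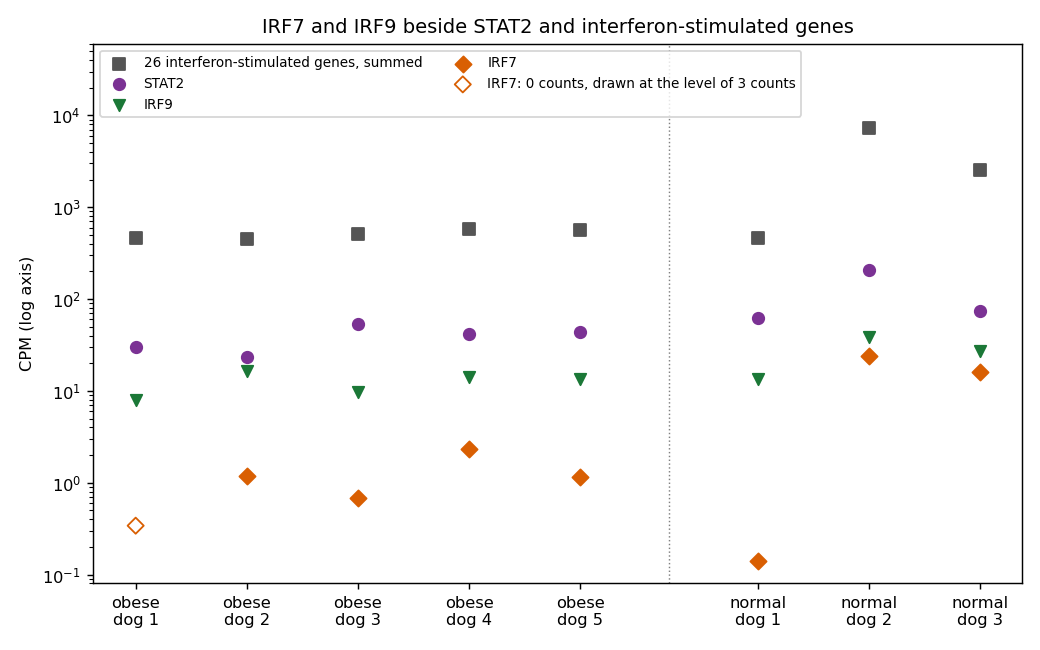
Level in CPM (y axis, log scale) of IRF7, IRF9, STAT2 and the sum of 26 interferon-stimulated genes in each dog, obese dogs on the left and normal dogs on the right. The open symbol marks the 0 counts of IRF7 in obese dog 1, drawn at the level of 3 counts, and in normal dogs 2 and 3 all 4 series stand above normal dog 1.

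Neither the sensors upstream of the IRFs nor the interferon receptors had a member past the threshold. Of 22 sensors and kinases upstream of IRF3, IRF5 and IRF7, 21 were tested, with a median log2 fold change of 0.02. The cytosolic RNA sensors had the smallest p-values in that list, and these genes are themselves induced by interferon. DHX58 had 5.00 ± 0.462 CPM in obese dogs, against 3.73, 51.9 and 23.6 CPM in normal dogs 1 to 3 (adjusted p = 0.122, edgeR). IFIH1 had 17.5 ± 3.50 CPM in obese dogs, against 15.9, 119 and 45.7 CPM in normal dogs 1 to 3 (adjusted p = 0.154), and DDX58, which encodes RIG-I, had an adjusted p of 0.192. In both DHX58 and IFIH1 normal dog 1 stood with the obese dogs. TBK1, a kinase that activates IRF3, had 178 ± 38.9 CPM in obese and 223 ± 40.2 CPM in normal dogs.

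Of 16 genes of the interferon receptors and their signalling, 15 were tested, with a median of −0.12. At an unadjusted edgeR p under 0.05, 5 were lower and 1 higher (6.73% and 9.01% of all genes). The groups did not overlap in 5 of the 15 (10.9% of all genes). These were STAT2, USP18, IFNGR1 and PTPN2, lower in obese dogs, and TYK2, higher. For USP18 the nearest dogs were obese dog 5 at 9.68 CPM and normal dog 1 at 9.70 CPM. STAT2 had 38.5 ± 11.9 CPM in obese dogs, against 62.6, 205 and 73.9 CPM in normal dogs 1 to 3, without overlap (log2 fold change −1.56, adjusted p = 0.133, edgeR). USP18, a negative regulator of the type I receptor, had an adjusted p of 0.0686 and IFNGR1, a chain of the interferon gamma receptor, an adjusted p of 0.179. Among the 11 partner proteins and regulators of the IRFs, 10 were tested, none passed and the median was 0.20. IRF2BPL, a relative of the corepressors of IRF2, had 129 ± 68.3 CPM in obese and 49.5 ± 8.32 CPM in normal dogs, without overlap (log2 fold change 1.38, adjusted p = 0.171, edgeR). IRF2BP2, a corepressor of IRF2, had 370 ± 78.4 CPM in obese and 281 ± 64.7 CPM in normal dogs. The interferon genes themselves were at or near the limit of detection, with 7 found and none tested. Their summed level was 0.113 to 0.727 CPM in obese and 0.553 to 0.574 CPM in normal dogs. Most of it was IFNE, with 39 counts over all dogs, while IFNB1, IFNK, IFNL3 and IFNA7 had 0 counts in all dogs.

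IRF3 and IRF5, which are present before stimulation and are activated by phosphorylation, differed less between the groups. IRF3 had 58.0, 52.5, 74.6, 88.3 and 81.5 CPM in obese dogs 1 to 5, against 62.9, 42.3 and 49.6 CPM in normal dogs 1 to 3. Obese dogs 3, 4 and 5 stood above all normal dogs and obese dogs 1 and 2 within their range. The log2 fold change was 0.46 (SE 0.258, adjusted p = 0.418, edgeR). IRF3 varied the least between dogs of the 8 genes, with its highest dog 2.09 times its lowest. IRF5 had 34.9, 114, 69.4, 167 and 128 CPM in obese dogs 1 to 5, against 128, 38.4 and 86.4 CPM in normal dogs 1 to 3. The IRF5 values spread over nearly the same range in both groups (log2 fold change 0.28, SE 0.504, adjusted p = 0.824, edgeR), and its direction changed to −0.10 without normal dog 2. The ratio of IRF7 to IRF3 counts was 0 to 0.0265 in obese dogs, against 0.00224, 0.573 and 0.324 in normal dogs 1 to 3. The exact two-sided permutation p of that ratio, on the log2 scale, was 0.179, or 0.268 adjusted over the 3 ratios.

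IRF1 and IRF2 had the highest mean levels of the family in obese dogs, and neither passed the threshold. IRF1, the activator of the pair, had 281, 207, 93.3, 147 and 103 CPM in obese dogs 1 to 5, against 173, 140 and 139 CPM in normal dogs 1 to 3. The normal values sat inside the obese range (log2 fold change 0.14, SE 0.363, adjusted p = 0.887, edgeR), and without obese dog 1, the highest dog, it was −0.14. The coefficient of variation of IRF1 was 47.1% over the obese and 12.7% over the normal dogs. IRF1 overlaps RAD50 in the reference annotation (16745 and 46121 counts in all), and the sources used here do not give the strand setting of the counting, so that reads of the overlap cannot be told apart. IRF2, the repressor, had 92.4, 90.7, 171, 181 and 174 CPM in obese dogs 1 to 5, against 185, 247 and 180 CPM in normal dogs 1 to 3. Obese dogs 1 and 2 stood far below the others (log2 fold change −0.53, SE 0.300, adjusted p = 0.425, edgeR). The ratio of IRF1 to IRF2 counts was 3.04 and 2.28 in obese dogs 1 and 2, 0.547 to 0.811 in obese dogs 3 to 5, and 0.567 to 0.933 in normal dogs, with an exact permutation p of 0.411, also after adjustment over the 3 ratios.

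Of 12 genes known as targets of IRF1, all were tested and none passed, with a median log2 fold change of −0.45 and 10 negative values. PSMB8, a subunit of the immunoproteasome, had 51.8 ± 9.81 CPM in obese and 90.4 ± 7.31 CPM in normal dogs, without overlap (log2 fold change −0.80, adjusted p = 0.154, edgeR). CIITA, the master regulator of MHC class II genes, had 75.0 ± 39.8 CPM in obese and 30.2 ± 10.3 CPM in normal dogs (adjusted p = 0.255). The dog gene CASP4, for which the reference lists CASP1 as a synonym, had 12.6 ± 5.39 CPM in obese and 24.3 ± 8.62 CPM in normal dogs (adjusted p = 0.293). PSMB8 and CASP4 thus had the sign opposite to that of CIITA.

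**Figure D4:**
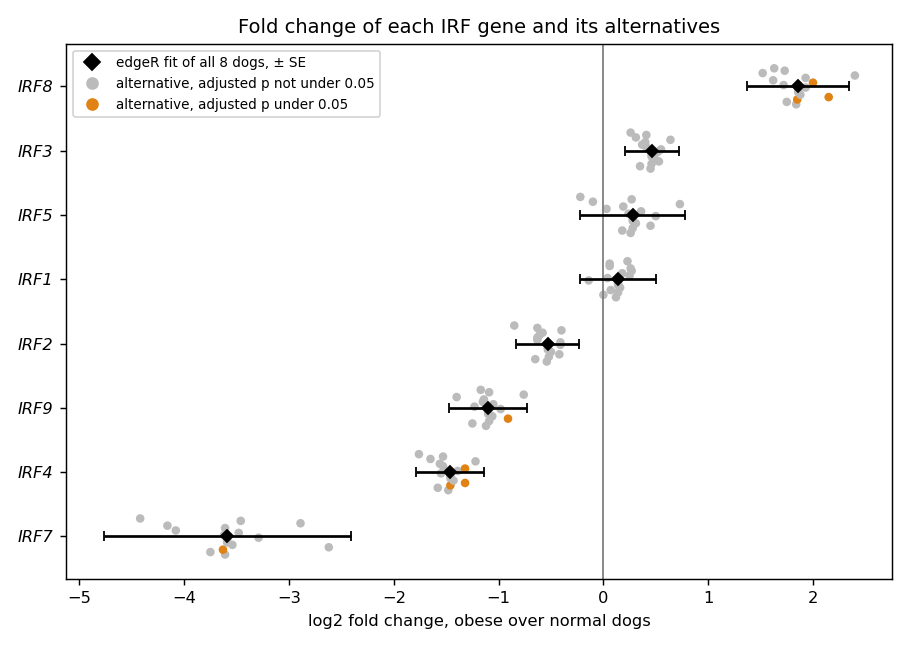
Log2 fold change, obese over normal (x axis), of each IRF gene (y axis), from edgeR on all 8 dogs as a black diamond with its standard error, and from 16 alternative settings as small points, orange where the adjusted p was under 0.05. IRF8 lies right of 0 and IRF4, IRF7, IRF9 and IRF2 left of 0 in all 16 alternatives, and orange points appear for IRF4, IRF8, IRF7 and IRF9.

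By level, the order of the family differed between the groups. In the obese dogs the mean CPM ran from IRF1 (166) and IRF2 (142) over IRF5 (103), IRF8 (97.5), IRF3 (71.0) and IRF4 (60.8) to IRF9 (12.3) and IRF7 (1.08). Neighbours from IRF1 down to IRF4 differed by less than the larger of their SDs, while IRF4 exceeded IRF9, and IRF9 exceeded IRF7, in all 5 obese dogs. In the normal dogs the order was IRF2 (204), IRF4 (167), IRF1 (151), IRF5 (84.4), IRF3 (51.6), IRF8 (26.9), IRF9 (26.5) and IRF7 (13.5). There the steps from IRF1 to IRF5, from IRF3 to IRF8 and from IRF9 to IRF7 were larger than either SD and held in all 3 normal dogs. IRF4 ranked from 4 to 6 among the 8 genes in each obese dog and from 1 to 3 in each normal dog, and IRF8 ranked from 2 to 6 in obese and from 6 to 8 in normal dogs.

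As shares of the counts of the 8 genes, IRF4 took 9.22 ± 2.64% in obese and 22.8 ± 3.61% in normal dogs, and IRF8 took 14.4 ± 4.77% and 3.59 ± 1.61% (SD, n = 5 obese and 3 normal). IRF3 took 7.92 to 15.1% in obese and 6.28 to 7.64% in normal dogs, the only other member whose shares did not overlap. IRF1 took 15.7 to 44.8% in obese dogs and 20.5 to 21.0% in normal dogs. Shares of a total move together, so that a low IRF4 share raises the others.

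**Figure D5:**
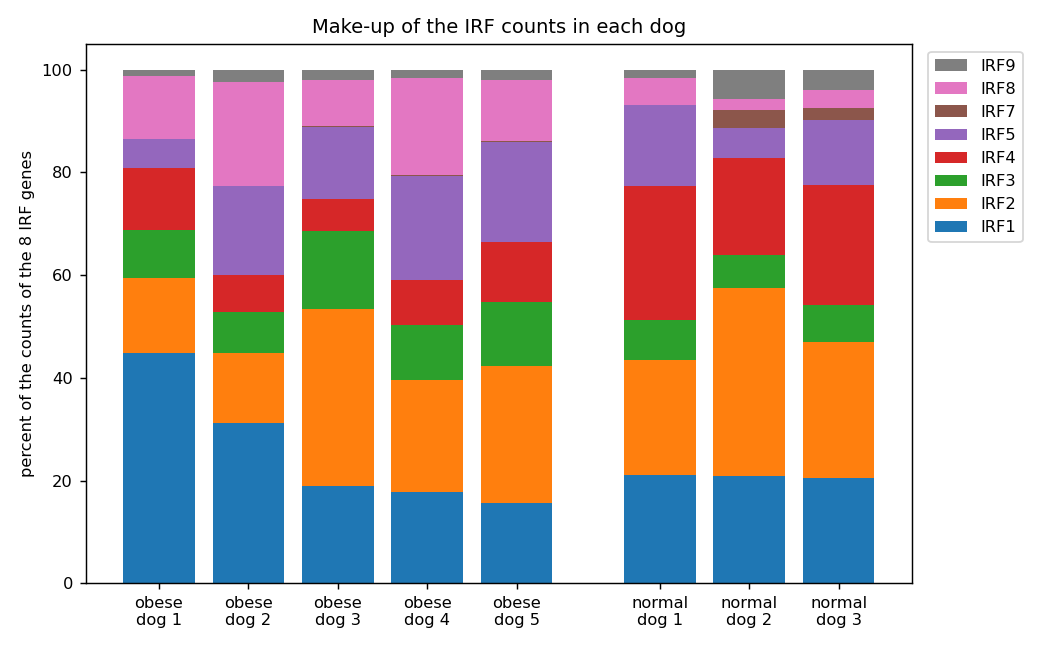
Percent of the counts of the 8 IRF genes taken by each gene (stacked bars, y axis) in each obese dog (left) and each normal dog (right). The red IRF4 segment is 6.20 to 12.1% in obese and 19.0 to 26.2% in normal dogs, and the pink IRF8 segment is 9.09 to 20.1% and 2.09 to 5.30% in the same order.

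The genes most like each of the other members over the 8 dogs were picked by the same rule. For IRF4 they were KIF18A, a kinesin of the mitotic spindle (r = 0.960), CEP152, a centriole protein, and AUNIP, a partner of Aurora kinase A (both r = 0.955). KIF18A had 7.51 ± 3.24 CPM in obese and 25.1 ± 6.22 CPM in normal dogs. AUNIP had 3.76 ± 1.27 CPM in obese and 8.20 ± 0.639 CPM in normal dogs. Its obese mean was below the minimum of 5 CPM, which it met through the normal dogs. For IRF8 they were GMFB (r = 0.980), SMG5, a factor of nonsense-mediated decay (r = 0.979), and UNKL (r = 0.978), and UNKL had 35.5 ± 10.6 CPM in obese and 16.4 ± 4.96 CPM in normal dogs. None of these 6 genes passed the threshold over all genes. The lists for the remaining members were PAIP2, BLM and SRSF9 for IRF1, UBA1, MAPRE1 and DUSP10 for IRF2, SORBS3, MXD4 and RWDD2B for IRF3, and SRSF7, POLR2B and ZDHHC8 for IRF5, with r from 0.959 to 0.988. Where a member differed between the groups, as IRF4 and IRF8 did, part of its likeness is that shared difference, since all 8 dogs enter it.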

How the data were processed

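Per the labels, RNA was extracted with Trizol and made into Lexogen QuantSeq libraries. The authors deposited 1 table of raw counts per gene symbol for each dog. The tools named, per the submitters' processing notes, are Bowtie2 and bedtools, and their versions, the build and the annotation are not stated there. Of repeated symbols (411 extra rows) the highest-mean row was kept under the plain symbol. Names and gene neighbours come from a RefSeq table of UU_Cfam_GSD_1.0. No 2 libraries agreed within sampling noise (lowest chi-square per degree of freedom 29.1).

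Counts were tested in R 4.3.3 with edgeR 4.0.16 (filterByExpr, TMM, robust glmQLFit and glmQLFTest, obese over normal, Benjamini-Hochberg over 20632 genes, threshold 0.05), after a check on simulated counts. The standard error is the log2 fold change over the root of F. CPM use TMM-scaled library sizes. Alternatives were DESeq2 1.42.0, limma 3.58.1 voom, other scalings and filters, summed symbols, 1 dog left out and the dog number as a block. Likeness used log2 CPM (prior count 2). The IRF genes, the 7 pathway and 11 cell type lists and the naming rule (up to 6 called genes of a list, filled to 3 by the smallest p, and the 3 most like genes) were chosen with earlier results of these data known. Listed genes described beyond that rule, among them SPI1 and TBK1, were chosen after their values were seen. RIGI was matched as DDX58, and IFIT1, XAF1, SAMD9, IFNA1, IFNW1, CR2, CLEC9A, CLEC10A and PF4 were not found under these symbols.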

Additional observations from a re-analysis of the deposited data

How the results depend on the processing

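The 8 IRF genes were refitted under 16 alternatives, and IRF2, IRF3, IRF4, IRF7, IRF8 and IRF9 kept their direction in all of them. The number past the threshold was 3 with DESeq2, 3 with limma voom with quality weights, and 0 to 2 when 1 dog was left out, the 2 being IRF4 and IRF8 without obese dog 3. Leaving out 1 dog gave −0.14 to 0.27 for IRF1, negative without obese dog 1, and −0.10 to 0.73 for IRF5, negative without normal dog 2, and the replicate block gave −0.22 for IRF5. Adjusted p-values over the alternatives ran from 0.00435 to 0.375 for IRF4, from 0.00334 to 0.548 for IRF8, from 0.0267 to 0.584 for IRF7 and from 0.0494 to 0.626 for IRF9. Over all genes, 10 were higher and 38 lower in the obese dogs. DESeq2 gave 620 and 436, and voom 1887 and 2055. Leaving out 1 dog gave 0 to 661 higher and 2 to 1023 lower genes, with the highest counts without obese dog 3 and at most 33 calls in all without any other dog. The cause of these differences was not tested. With upper-quartile factors the median over all genes was −0.03 in place of 0.09 (log2).

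The dog number as a replicate block gave 0 higher and 0 lower genes by edgeR, with 1634 genes at an unadjusted p under 0.05, and changed no call of an IRF gene. Same-numbered dogs are different dogs whose deviations from their group means correlated at −0.209 to 0.00545, so that the numbers do not pair them. The IRF4 to IRF8 difference was −3.17 to −3.61 under its 11 alternatives, with adjusted p of 0.0536 to 0.375. With 3 normal dogs an exact test cannot go below 0.0179, and leaving out a dog raises that limit. IRF7, with 0 to 42 counts in the obese dogs, is the member most limited by depth.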

Other observations

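Obese dogs 1 and 2 had the lowest IRF2 values and the highest IRF1 values of all 8 dogs. The platelet markers of these dogs summed to 1230 and 619 CPM, against 66.3 to 182 CPM in obese dogs 3 to 5 and 7.19 to 31.1 CPM in the normal dogs. IRF2BPL (233 and 165 CPM) and IKZF1 (1379 and 1536 CPM) were also highest in these dogs. The part of platelet RNA in these values was not tested.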
